A study of Homo sapiens with 15 samples.

Results

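The 34 genes described here encode the constitutive subunits of the human 26S proteasome and 3 chaperones of its assembly, out of 55773 genes in the deposited table. They were taken by name: PSMA1 to PSMA7 and PSMB1 to PSMB7 for the 20S core, PSMC1 to PSMC6 and PSMD1 to PSMD14 for the 19S cap. RNA-seq was done in HEK293-derived cells, an established human embryonic kidney line, in 15 libraries of 5 groups with 3 each. In 3 of the groups, derived from the Flp-In T-REx line, doxycycline at 1 µg/mL for 24 h induced Flag/HA-ZC3H7A, Flag/HA-ZC3H7B or a Flag/HA control, called ZC3H7A, ZC3H7B and control cells below. Their replicates were labelled independent, and the cells were lysed in polysome buffer before poly(A) RNA was taken. The other 2 groups were ZC3H7A/B-DD cells, which combined a ZC3H7A knockout with an shRNA against ZC3H7B, and Parental cells with a control shRNA. Both grew in puromycin at 5 µg/mL until 2 passages before collection, and their libraries were prepared by a company with another protocol. The sources used here do not say whether their samples were separate cultures, or how many clones or lines stood behind any group. The p-values therefore measure the spread between these libraries. The series asks how the RNA-binding proteins ZC3H7A and ZC3H7B act on mRNA translation and stability in a codon-dependent way.

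The 26S proteasome degrades proteins that carry ubiquitin chains. Its 20S core is a stack of rings in which alpha subunits form the gate and beta subunits the chamber, with PSMB5, PSMB6 and PSMB7 holding the active sites. The 19S cap recognises the chain, removes it and feeds the unfolded protein into the core with a ring of ATPases. The subunits assemble in fixed ratios, and their genes are known as a group that the transcription factor NFE2L1 induces when proteasome activity falls.

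Levels are given as normalized reads, meaning reads divided by a factor per library. Log2 fold changes are differences of log2(normalized reads + 1), given with the standard error (SE) and the Benjamini-Hochberg adjusted p of a limma fit over all genes with at least 10 normalized reads in 3 or more libraries, and a gene was called at an adjusted p under 0.05. The libraries held 45478349 to 57583998 reads in the overexpression experiment and 12214990 to 15504598 in the depletion experiment. ZC3H7A averaged 11192 ± 1492 normalized reads in ZC3H7A cells and 3259 ± 102 in control cells (SD, n = 3 each). ZC3H7B averaged 27142 ± 815 in ZC3H7B cells and 5938 ± 114 in control cells. ZC3H7B cells held less ZC3H7A RNA than control cells (2032 ± 89.96), and ZC3H7A cells more ZC3H7B RNA (7976 ± 508). In DD cells ZC3H7B averaged 1084 ± 84.1, against 6463 ± 505 in Parental cells. ZC3H7A RNA was 1658 ± 106 in DD cells and 1599 ± 78.7 in Parental cells, so the knockout was not visible in the RNA level. Replicate 3 of ZC3H7A and replicate 3 of Parental stood apart from the others of their groups, with chi-square values per gene of 20.6 and 26.5 against 4.45 in ZC3H7A and of 18.9 and 12.6 against 3.68 in Parental. Counts of members are therefore also given without them.

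Most proteasome genes rose when either protein was overexpressed, and a smaller number fell. In ZC3H7A cells 20 of the 34 members rose, 8 fell and 6 did not pass the test, where 34.7% of all tested genes rose and 41.2% fell. In ZC3H7B cells 23 rose, 6 fell and 5 did not pass, where 32.0% of all tested genes rose and 37.6% fell. The median log2 fold change of the members was 0.30 in ZC3H7A cells and 0.31 in ZC3H7B cells, and that of all tested genes was -0.07 and -0.055. Both comparisons use the same control libraries. The falls in both include PSMD5, which passed the filter only through these control libraries. The split depended on the scaling: with upper-quartile scaling 23 members rose and 5 fell in ZC3H7A cells, and with scaling to library totals 18 rose and 12 fell, while the median of all tested genes was 0.058 and -0.178. In ZC3H7B cells the same settings gave 25 rises with 4 falls and 20 rises with 8 falls, with all-gene medians of 0.077 and -0.138. Without ZC3H7A replicate 3, 19 members rose and 10 fell in ZC3H7A cells, beside 6244 and 7511 of 17526 tested genes. In DD cells 9 of the 33 members tested rose and 0 fell by limma, where 14.7% of all tested genes rose and 14.8% fell. The count of falls was also 0 at an unadjusted p under 0.05, in edgeR and in DESeq2. Without Parental replicate 3 the count of rises in DD cells was 13, beside 3564 of 18081 tested genes.

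**Figure D1:**
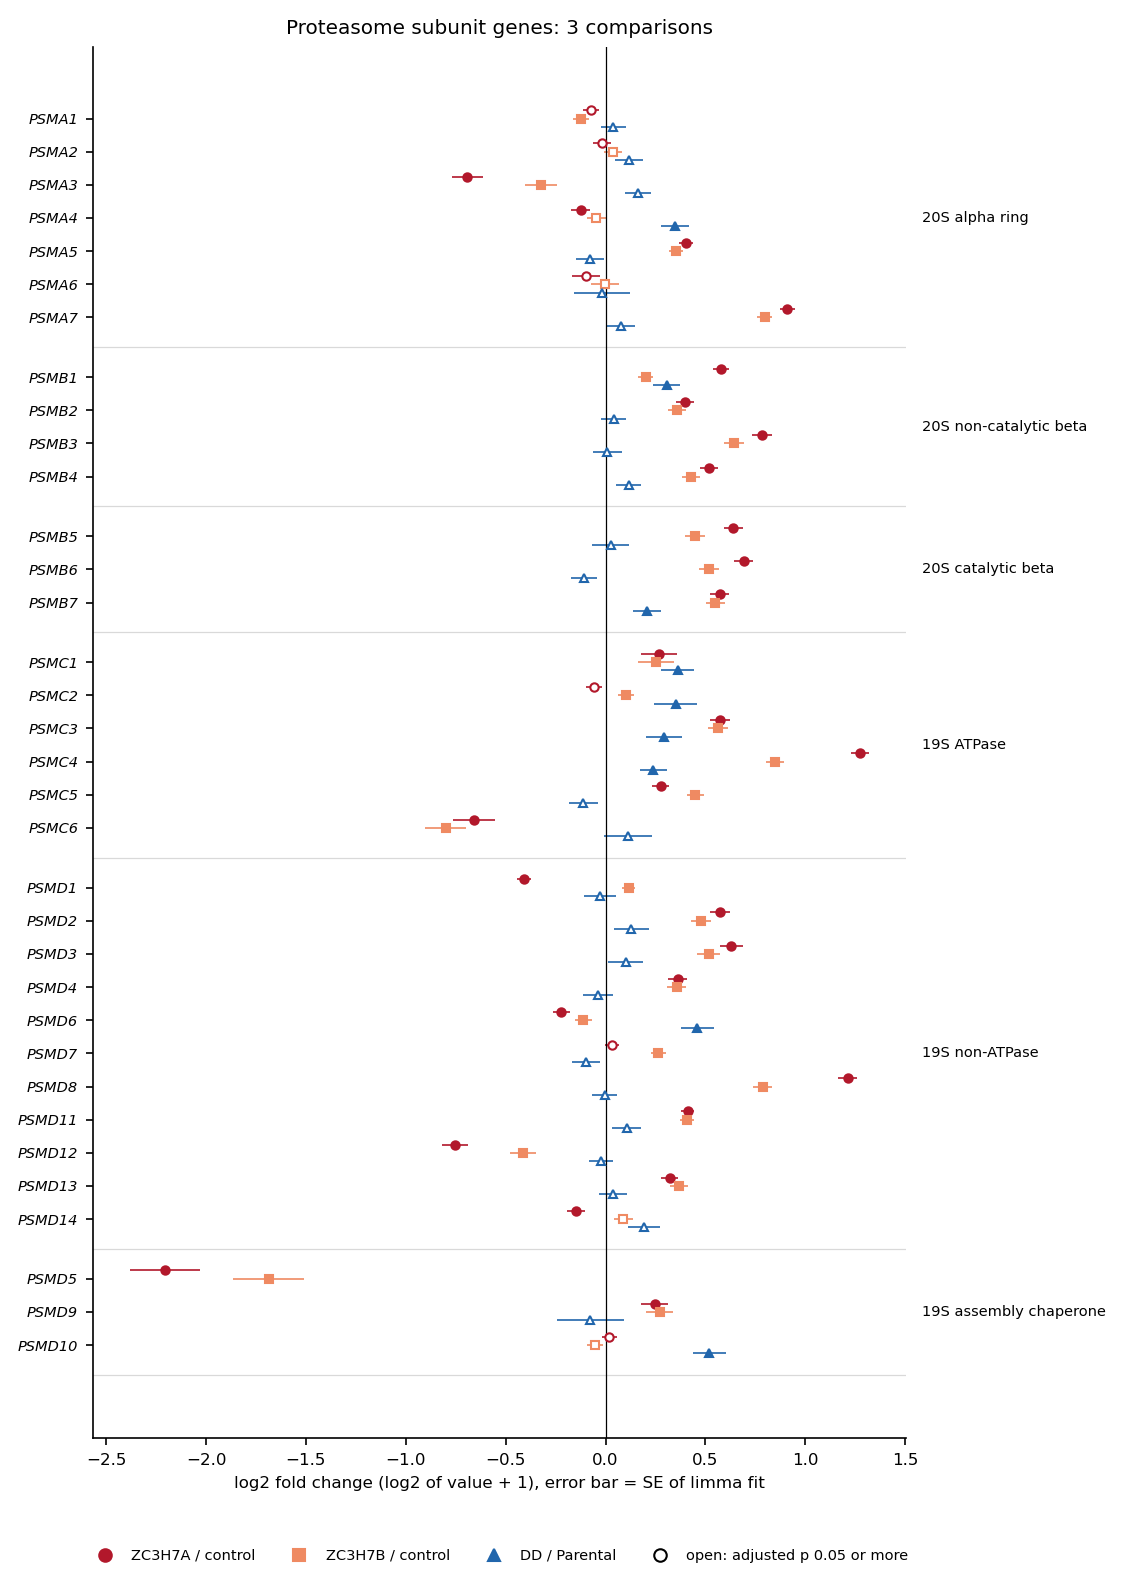
Log2 fold change (x axis, with SE) of each of the 34 genes, grouped by place in the proteasome, for ZC3H7A against control (circles), ZC3H7B against control (squares) and DD against Parental (triangles). Filled symbols passed the test; all 7 beta subunit genes lie right of 0 in both overexpressions, and PSMD5 lies far left.

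Members as a whole took a larger share of the reads in the overexpressing cells. Their summed share of a library was 0.683% ± 0.0112 in ZC3H7A cells, 0.656% ± 0.00626 in ZC3H7B cells and 0.541% ± 0.00782 in control cells (SD, n = 3 each). It was 0.445% ± 0.00818 in DD cells and 0.4% ± 0.0166 in Parental cells. The 3 libraries of each overexpressing group lay above all 3 control libraries, and the 3 DD libraries lay above all 3 Parental libraries. PSMD8 and PSMC4 had the most reads of all members in the overexpressing cells and weigh most in these sums. In bulk RNA, fewer cells with a transcript and less of it per cell cannot be told apart.

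The direction of a member in the overexpressing cells went with the last base of its codons. In the longest annotated coding sequence of each member, between 21.7% and 68.2% of the codons ended in A or T (A/T-ending codons). The share ran from 21.7% in PSMD8 to 68.2% in PSMA3. Of the 18 members under 50%, 17 rose and 0 fell in ZC3H7A cells (0 falls also at an unadjusted p under 0.05 in limma, edgeR and DESeq2), where 55.6% of all 8897 tested genes under 50% rose and 23.8% fell. In ZC3H7B cells all 18 rose, beside 50.1% of all tested genes under 50%. Of the 16 members at 50% or more, 3 rose and 8 fell in ZC3H7A cells, where 12.0% of the 4681 tested genes in that range rose and 70.6% fell. In ZC3H7B cells 5 of these 16 rose and 6 fell, beside 13.8% and 64.2% of all tested genes in that range. The falls with each protein include PSMD5, which passed the filter only through the control libraries. Under 50% the members held a larger share of rises, and a smaller share of falls, than all genes of that range, as a count and without a test. At 50% or more the members' shares of rises, 18.8% with ZC3H7A and 31.2% with ZC3H7B, rest on only 3 and 5 genes. The 16 members of that range also include PSMA6 and PSMC1, which are uncertain as given below, so no trait of the members is read from it.

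Across the 34 members, Spearman's rho between the share of A/T-ending codons and the log2 fold change was -0.81 (Pearson's r -0.69) in ZC3H7A cells and -0.855 (-0.68) in ZC3H7B cells. Across 13578 tested genes with a coding sequence it was -0.52 and -0.46. In DD cells rho was 0.26 over 33 members and 0.04 over 13209 genes. These are descriptions across genes that share the same libraries, and the first 2 share the control libraries as well. Set against the median of all genes within the same 5-point range of codon share, 28 of the 34 members lay above it in ZC3H7A cells and 30 of 34 in ZC3H7B cells, with a median distance of 0.34 and 0.37 on the log2 scale. With the trend of each library along the A+T share of the coding sequence removed, 27 members rose and 4 fell in ZC3H7A cells and 29 rose and 2 fell in ZC3H7B cells. Of the 13578 genes then tested, 5411 rose and 5245 fell in ZC3H7A cells, and 5038 rose and 5178 fell in ZC3H7B cells. In that setting PSMA4, PSMD6 and PSMD14, called lower with ZC3H7A, and PSMA1, PSMA3 and PSMD6, called lower with ZC3H7B, had positive values, the PSMD12 call with ZC3H7B was lost, and PSMD1 had -0.035 with ZC3H7A (adjusted p = 0.457).

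**Figure D2:**
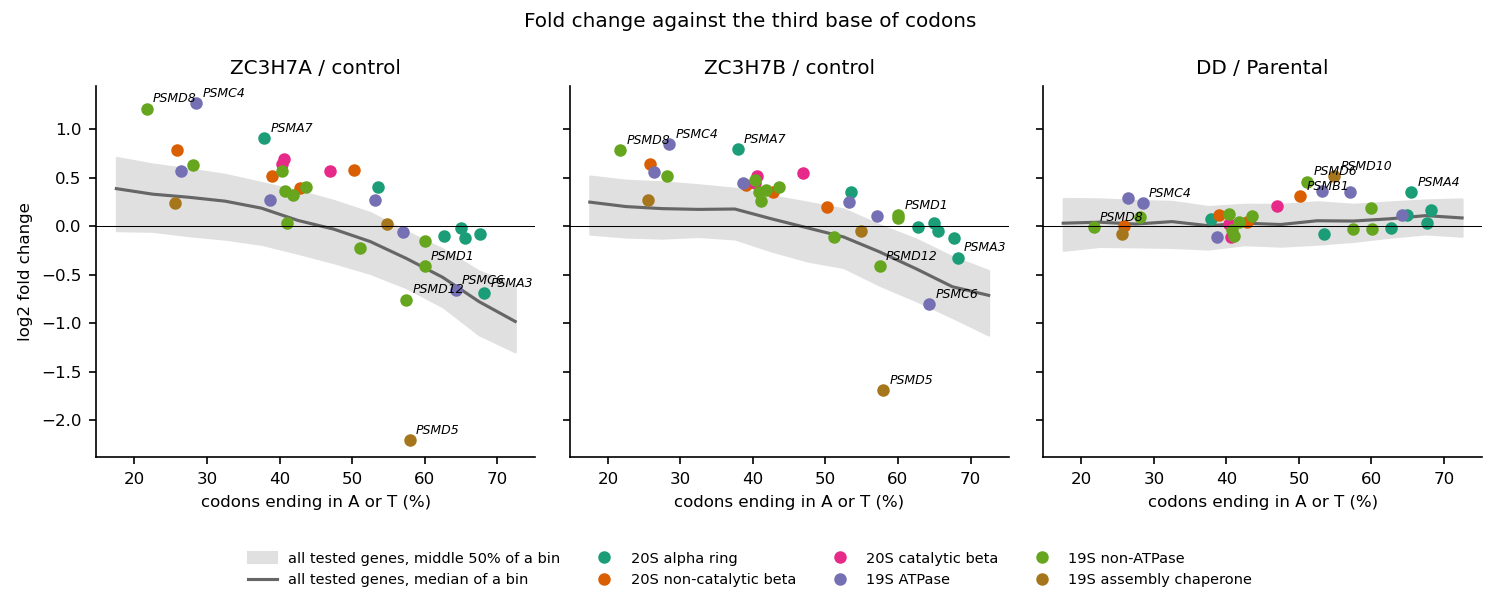
Log2 fold change (y axis) of each member against its share of A/T-ending codons (x axis, %) in 3 panels, coloured by place in the proteasome, over the median (line) and the middle 50% (band) of all tested genes in 5-point ranges. Members slope down to the right with both overexpressed proteins, mostly above the line, and show little slope in DD cells.

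The 6 ATPase genes show how far the last base of a codon can differ in one protein motif. All 6 encode the nucleotide-binding Walker A motif, and the 20 codons from 6 codons before its start are printed below from the GENCODE 29 transcripts on GRCh38, 5′ to 3′, with capitals for A or T at the last base of a codon.
PSMC4: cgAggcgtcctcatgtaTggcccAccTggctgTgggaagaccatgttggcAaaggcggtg
PSMC3: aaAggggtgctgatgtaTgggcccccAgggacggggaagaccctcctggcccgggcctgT
PSMC5: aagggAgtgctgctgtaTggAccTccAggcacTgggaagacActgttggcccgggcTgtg
PSMC2: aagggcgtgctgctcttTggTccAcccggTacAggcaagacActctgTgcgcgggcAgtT
PSMC1: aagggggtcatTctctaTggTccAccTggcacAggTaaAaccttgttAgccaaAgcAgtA
PSMC6: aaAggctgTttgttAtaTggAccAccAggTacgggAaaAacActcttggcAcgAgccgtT
The stretch held 6 A/T-ending codons of 20 in PSMC4 and 4 in PSMC3, 8 in PSMC5 and 9 in PSMC2, and 12 in PSMC1 and 14 in PSMC6. Over the whole coding sequence the shares were 28.5% in PSMC4, 26.4% in PSMC3, 38.7% in PSMC5, 57.0% in PSMC2, 53.2% in PSMC1 and 64.3% in PSMC6. PSMC4 had the largest rise of all members in both overexpressions and PSMC6 fell in both, as given below. PSMC1, with 12 in the stretch, rose in both (0.27 and 0.25), though its values are uncertain. PSMC3, with 4, rose less than PSMC4 (0.57 and 0.56 against 1.27 and 0.85). Direction and size therefore did not follow this stretch in every gene.

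The alpha genes hold a pair like PSMC4 and PSMC6 at the conserved start of the protein, an N-terminal signature shared by all 7 alpha subunits. PSMA7, which rose, and PSMA3, which fell, are printed over the 20 codons from 6 codons before this signature, from the same source and with the same capitals.
PSMA7: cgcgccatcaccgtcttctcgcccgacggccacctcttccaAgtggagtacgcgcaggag
PSMA3: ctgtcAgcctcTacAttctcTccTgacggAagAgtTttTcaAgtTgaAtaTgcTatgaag
Here PSMA7 had 1 A/T-ending codon of 20 and PSMA3 had 14. The other 5 alpha genes had 11 to 13, and PSMA5 with 13 rose in both overexpressions (0.40 and 0.35), so the direction did not follow this stretch in every gene.

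In the alpha ring genes were called in both directions. Of all tested genes 34.7% rose and 41.2% fell with ZC3H7A, and 32.0% and 37.6% with ZC3H7B. The counts below are therefore no result about the ring. PSMA5 and PSMA7 rose in both overexpressions, PSMA3 fell in both, PSMA4 fell in ZC3H7A cells and PSMA1 fell in ZC3H7B cells, so that 2 rose and 2 fell of 7 each time by limma. The fall of PSMA4 with ZC3H7A was lost in edgeR (adjusted p = 0.0956) and DESeq2 (adjusted p = 0.261), and that of PSMA1 with ZC3H7B likewise (adjusted p = 0.199 and 0.227). In both tools PSMA3 still fell. PSMA7 had 10127, 10130 and 9643 normalized reads in ZC3H7A cells and 9328, 9206 and 9109 in ZC3H7B cells, against 5154, 5397 and 5366 in control cells. Both overexpressing groups lay far above the control. The log2 fold change was 0.91 (SE 0.037, adjusted p = 2.22e-09) with ZC3H7A and 0.80 (SE 0.037, adjusted p = 1.09e-08) with ZC3H7B. PSMA7 lies on chromosome 20, and the 20 nearest tested genes that are no members had a median log2 fold change of 0.59 with ZC3H7A; their part in the result was not tested.

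PSMA3, the alpha subunit with the most A/T-ending codons, had 1755, 1864 and 2134 normalized reads in ZC3H7A cells and 2236, 2440 and 2746 in ZC3H7B cells, against 3004, 3149 and 3112 in control cells. The control lay above both, and the ZC3H7A libraries lay below the ZC3H7B libraries. PSMA3 fell by 0.69 on the log2 scale (SE 0.079, adjusted p = 6.24e-06) with ZC3H7A and by 0.32 (SE 0.079, adjusted p = 0.00286) with ZC3H7B. The median of its 20 neighbours with ZC3H7A was -0.61, and their part in the result was not tested. PSMA2 and PSMA6 passed the test in none of the comparisons by limma, with log2 fold changes of -0.02 and -0.10 in ZC3H7A cells. PSMA6 is uncertain, since it had 145 to 239 normalized reads while rows named as its 4 pseudogenes summed to as much as 442% of it in a library. Exon overlaps on the same strand in GENCODE 29 also touch PSMA1 (35.7% of its exon bases) and PSMA2 (52.5%).

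All 7 beta subunit genes rose in both overexpressions, by 0.40 to 0.78 on the log2 scale with ZC3H7A and 0.20 to 0.64 with ZC3H7B. The medians were 0.55 and 0.39 for the 4 non-catalytic ones, and 0.64 and 0.52 for the 3 catalytic ones. Rising together was not particular to the beta genes. All but PSMB1 had under 50% A/T-ending codons, a range where 17 of 18 members rose with ZC3H7A and all 18 with ZC3H7B. Of all tested genes in that range, 55.6% rose with ZC3H7A and 50.1% with ZC3H7B. PSMB5, the chymotrypsin-like subunit, had 4600, 4242 and 4077 normalized reads in ZC3H7A cells and 3831, 3796 and 3662 in ZC3H7B cells, against 2684, 2808 and 2788 in control cells. The 3 groups did not overlap. Its log2 fold changes were 0.64 (SE 0.048, adjusted p = 1.89e-07) with ZC3H7A and 0.45 (SE 0.048, adjusted p = 5.38e-06) with ZC3H7B.

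PSMB6, the caspase-like subunit, had 5604, 5391 and 5018 normalized reads in ZC3H7A cells, 4758, 4838 and 4585 in ZC3H7B cells and 3180, 3410 and 3312 in control cells. PSMB7, the trypsin-like subunit, had 6076, 5784 and 5428 in ZC3H7A cells, 5721, 5787 and 5511 in ZC3H7B cells and 3865, 3732 and 4029 in control cells. For both genes every overexpressing library lay above every control library. PSMB6 rose by 0.69 with ZC3H7A and 0.52 with ZC3H7B on the log2 scale (SE 0.048 each, adjusted p = 9.79e-08 and 1.63e-06), and PSMB7 by 0.57 and 0.55 (SE 0.048 each, adjusted p = 4.95e-07 and 1.03e-06).

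PSMB3 had the largest rise among the non-catalytic beta genes, at 0.78 with ZC3H7A and 0.64 with ZC3H7B. PSMB1 had 8555, 8426 and 8372 normalized reads in ZC3H7A cells and 6580, 6468 and 6473 in ZC3H7B cells, against 5409, 5710 and 5870 in control cells. ZC3H7A libraries were the highest and ZC3H7B libraries stood between. Its log2 fold change was 0.58 (SE 0.039, adjusted p = 7.12e-08) with ZC3H7A and 0.20 (SE 0.039, adjusted p = 0.000534) with ZC3H7B.

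Among the 6 ATPases of the 19S base, 4 rose and 1 fell with ZC3H7A, and 5 rose and 1 fell with ZC3H7B. The shares of all tested genes given for the alpha ring stand beside these counts and those of the other cap genes. PSMC4 had 17301, 16181 and 15247 normalized reads in ZC3H7A cells and 12375, 12122 and 11789 in ZC3H7B cells, against 6617, 6839 and 6694 in control cells. Each group stood clear of the others. PSMC4 rose by 1.27 on the log2 scale (SE 0.046, adjusted p = 1.12e-09) with ZC3H7A and by 0.85 (SE 0.046, adjusted p = 2.64e-08) with ZC3H7B. Its 20 neighbours on chromosome 19 had a median of 0.805 with ZC3H7A, and those of PSMD8 on the same chromosome 0.62; their part in the results was not tested.

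PSMC6, the ATPase with the most A/T-ending codons, went the other way. It had 830.6, 813.8 and 1060 normalized reads in ZC3H7A cells and 720.6, 802.9 and 921.2 in ZC3H7B cells, against 1335, 1470 and 1440 in control cells. The control libraries were the highest, and the ZC3H7A and ZC3H7B libraries overlapped. PSMC6 fell by 0.66 on the log2 scale (SE 0.104, adjusted p = 9.45e-05) with ZC3H7A and by 0.80 (SE 0.104, adjusted p = 2.46e-05) with ZC3H7B. PSMC3 rose by 0.57 and 0.56, and PSMC5 by 0.28 and 0.45. PSMC2 had a log2 fold change of -0.06 (adjusted p = 0.197) with ZC3H7A and rose by 0.10 (adjusted p = 0.035) with ZC3H7B, a call lost with libraries scaled to their totals (0.02, adjusted p = 0.662) and without the filter on low values (adjusted p = 0.0899). PSMC1 rose by 0.27 and 0.25, but it is uncertain: 82.2% of its exon bases overlap NRDE2 on the other strand in GENCODE 29, and NRDE2 was also higher, at 1503 to 1683 normalized reads in ZC3H7A cells, 1639 to 1681 in ZC3H7B cells and 1046 to 1065 in control cells. The sources used here do not say whether the counting used strand. Rows named as its 13 pseudogenes summed to as much as 89.5% of its value in a library. With libraries scaled to their totals both PSMC1 calls were lost (adjusted p = 0.137 with ZC3H7A and 0.127 with ZC3H7B).

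Of the 11 non-ATPase subunits of the cap, 6 rose and 4 fell with ZC3H7A, and 8 rose and 2 fell with ZC3H7B. PSMD8, the member with the fewest A/T-ending codons, had 23504, 22572 and 20832 normalized reads in ZC3H7A cells and 17201, 16627 and 15959 in ZC3H7B cells, against 9384, 9802 and 9656 in control cells. Each group again stood clear of the others. The log2 fold change was 1.21 (SE 0.047, adjusted p = 1.73e-09) with ZC3H7A and 0.79 (SE 0.047, adjusted p = 5.58e-08) with ZC3H7B. PSMD2, which with PSMD1 is one of the 2 large scaffold subunits, rose by 0.57 and 0.48, and the lid subunit PSMD3 by 0.63 and 0.52. The ubiquitin receptor PSMD4 rose by 0.36 and 0.355.

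PSMD12, a lid subunit with 57.5% A/T-ending codons, had 2817, 2648 and 3268 normalized reads in ZC3H7A cells and 3544, 3724 and 3764 in ZC3H7B cells, against 4810, 4849 and 5023 in control cells. The 3 groups did not overlap, with ZC3H7A lowest. PSMD12 fell by 0.755 on the log2 scale (SE 0.065, adjusted p = 5.97e-07) with ZC3H7A and by 0.41 (SE 0.065, adjusted p = 0.000121) with ZC3H7B. With the A+T trend removed the value with ZC3H7B was -0.06 (adjusted p = 0.0987). Its 20 neighbours on chromosome 17 had a median of -0.05 with ZC3H7A. PSMD14, the deubiquitinase of the lid, fell by 0.15 (adjusted p = 0.0119, but 0.116 in DESeq2) with ZC3H7A and had 0.09 (adjusted p = 0.113, but 0.0167 in DESeq2) with ZC3H7B.

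PSMD1 was the 1 member called in opposite directions with the 2 proteins. It had 5262, 5166 and 5260 normalized reads in ZC3H7A cells and 7458, 7574 and 7552 in ZC3H7B cells, against 6851, 7065 and 6922 in control cells. The ZC3H7A libraries lay below the control and the ZC3H7B libraries above it. PSMD1 fell by 0.41 (SE 0.034, adjusted p = 4.01e-07) with ZC3H7A and rose by 0.12 (SE 0.034, adjusted p = 0.00841) with ZC3H7B on the log2 scale. With libraries scaled to their totals the change with ZC3H7B was 0.03 (adjusted p = 0.346). Its 20 neighbours on chromosome 2 had a median of -0.46 with ZC3H7A, and their part in the result was not tested.

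The 3 assembly chaperones of the 19S base did not move together. PSMD9 rose by 0.245 (adjusted p = 0.0046) with ZC3H7A and 0.27 (adjusted p = 0.00285) with ZC3H7B, though 29.7% of its exon bases overlap other genes on the same strand. The PSMD9 call with ZC3H7A was lost with libraries scaled to their totals (adjusted p = 0.0606), and both were lost with the A+T trend removed (adjusted p = 0.677 and 0.088). PSMD10, also called gankyrin, had 0.02 and -0.05 (adjusted p = 0.665 and 0.252). PSMD5, which binds PSMC2 before the base is assembled, was close to the limit of detection. It had 5.13, 6.43 and 5.92 normalized reads in ZC3H7A cells and 8.81, 8.59 and 8.84 in ZC3H7B cells, against 28.6, 30.3 and 32.3 in control cells. Those values rest on 30, 51 and 176 reads. By reads PSMD5 was 5.17-fold lower in ZC3H7A than in control cells (95% exact binomial interval 3.496 to 7.89, counting error only), and it was called lower with both proteins (limma, adjusted p = 3.35e-07 and 4.45e-06). PSMD5 passed the filter only through the control libraries, a selection that favours a fall, so the ratio and these p-values are no support for one. It had no read in DD cells and 1 read in Parental cells, and was not tested there.

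**Figure D3:**
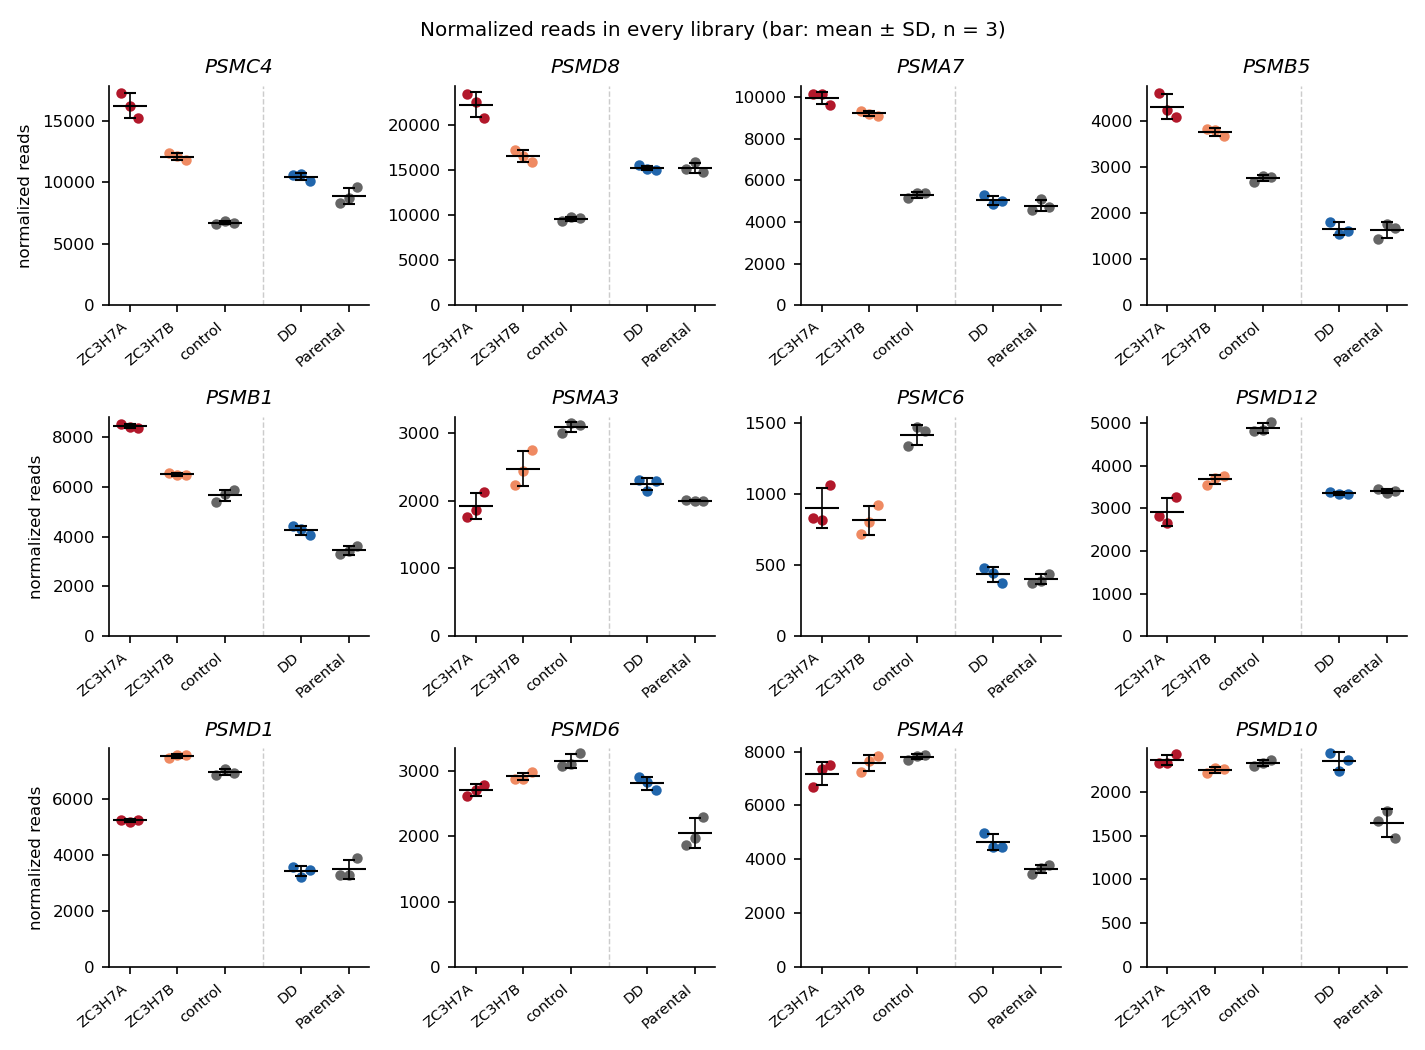
Normalized reads (y axis, from 0) of 12 members in every library, for ZC3H7A, ZC3H7B, control, DD and Parental cells from left to right, with mean ± SD (n = 3). PSMC4, PSMD8, PSMA7, PSMB5 and PSMB1 are higher and PSMA3, PSMC6 and PSMD12 lower in both overexpressing groups than in control, while PSMD6, PSMA4 and PSMD10 are higher in DD than in Parental cells.

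Sums by codon class restate the split above with the same reads and are no further support for it. PSMD8 and PSMC4 weigh most in the first sum in ZC3H7A cells. Their means were 22303 and 16243 normalized reads there, against 9614 and 6717 in control cells. The 18 members under 50% A/T-ending codons together took 0.499% ± 0.0195 of the reads in ZC3H7A cells, 0.459% ± 0.011 in ZC3H7B cells and 0.331% ± 0.00416 in control cells. The 16 others took 0.184% ± 0.00836, 0.197% ± 0.00505 and 0.210% ± 0.00367 (SD, n = 3 each). The first sum was higher and the second lower in every overexpressing library than in every control library. In DD cells both sums were higher than in Parental cells, at 0.312% ± 0.0051 against 0.287% ± 0.012 and 0.133% ± 0.00312 against 0.113% ± 0.00491.

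**Figure D4:**
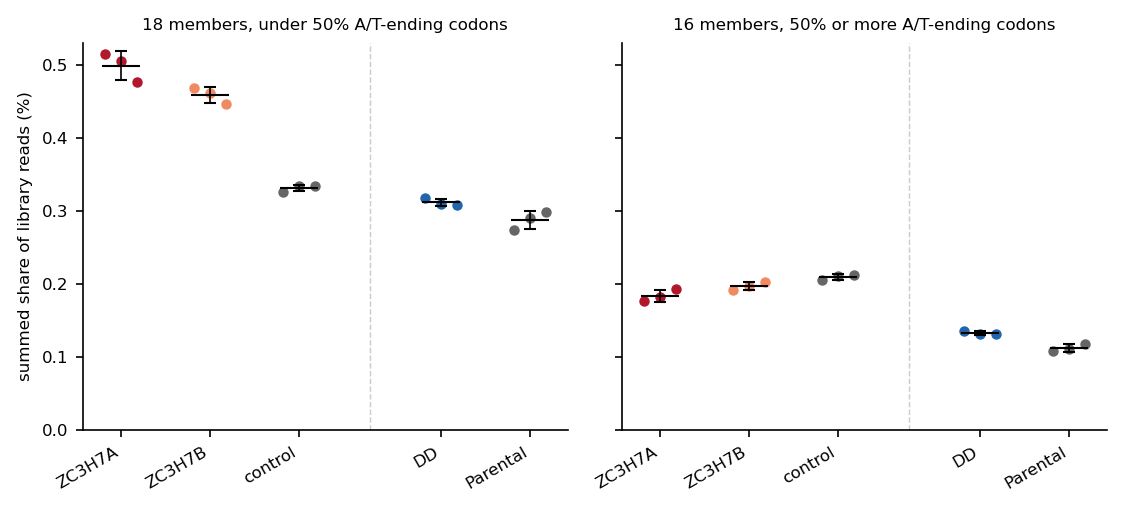
Summed share of library reads (y axis, %, from 0) of the 18 members under 50% A/T-ending codons (left) and of the 16 members at 50% or more (right) in every library of the 5 groups, with mean ± SD (n = 3). In ZC3H7A and ZC3H7B cells the left sum lies above and the right sum below that of control cells, and in DD cells both lie above Parental.

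Set directly against each other, ZC3H7A and ZC3H7B cells differed in 15 members. Of the 34, 7 were higher and 8 lower in ZC3H7A than in ZC3H7B cells, where 23.9% and 20.4% of all tested genes were. Without ZC3H7A replicate 3 the counts were 10 and 9, beside 4857 and 4634 of 17526 tested genes. Without ZC3H7B replicate 3 the 7 became 4, beside 3608 of 17604. The members' median was 0.014, changed sign between settings and gives no direction. PSMD8, PSMC4 and PSMB1 were higher with ZC3H7A by 0.425, 0.42 and 0.38 on the log2 scale (adjusted p = 1.88e-05, 1.44e-05 and 9.03e-06). The medians of their neighbours in the same comparison were as large, at 0.497, 0.461 and 0.426, and that of PSMD1 was -0.41; their part in these results was not tested. PSMD1 was lower by 0.53 (SE 0.034, adjusted p = 2.11e-07), PSMA3 by 0.37 (SE 0.079, adjusted p = 0.00252) and PSMD12 by 0.34 (SE 0.065, adjusted p = 0.00112). PSMD5 was lower too (adjusted p = 0.032), but its ratio by reads was 0.67 (0.412 to 1.07, 95% exact binomial interval), and its call was lost in edgeR (adjusted p = 0.121) and DESeq2 (adjusted p = 0.245). In both of these groups PSMD5 lay under the 10 normalized reads of the filter, which it passed only through the control libraries. Of the catalytic subunits, PSMB5 (0.19, adjusted p = 0.00629) and PSMB6 (0.17, adjusted p = 0.0111) were higher with ZC3H7A, and PSMB7 had 0.02 (adjusted p = 0.749). Leaving out 1 library at a time, the PSMB6 call did not always hold (limma, adjusted p of up to 0.0506). The calls of PSMA7 (0.11, adjusted p = 0.0263) and PSMB3 (0.14, adjusted p = 0.0429) were lost in edgeR (adjusted p = 0.0886 and 0.101) and DESeq2 (adjusted p = 0.0642 and 0.0709).

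Fewer members were called in DD cells than on overexpression. Fewer of all tested genes were called as well (14.7% rose and 14.8% fell), and the libraries held fewer reads. The 9 that rose in DD cells were PSMD10, PSMD6, PSMC1, PSMC2, PSMA4, PSMB1, PSMC3, PSMC4 and PSMB7, that is 4 of the 6 ATPases, 3 of the 14 core subunits, 1 of the 11 non-ATPase subunits and 1 chaperone. The members' median log2 fold change was 0.10, beside 0.013 for all tested genes. PSMD10 had 2441, 2237 and 2363 normalized reads in DD cells, against 1670, 1785 and 1468 in Parental cells. The groups did not overlap, and PSMD10 rose by 0.52 (SE 0.083, adjusted p = 0.000708). PSMC1 had 1744, 1613 and 1704 in DD cells, against 1219, 1275 and 1457 in Parental cells, and rose by 0.36 (SE 0.084, adjusted p = 0.00685) with the uncertainty given above. Its means in ZC3H7A, ZC3H7B and control cells were far lower, at 207.6, 204.5 and 171.7, and the cause of this gap was not tested.

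PSMD6 and PSMA4 rose in DD cells and were called lower on overexpression, PSMD6 with both proteins and PSMA4 with ZC3H7A. PSMD6, a lid subunit, had 2895, 2822 and 2700 normalized reads in DD cells, against 1867, 1977 and 2298 in Parental cells. All DD libraries were higher, by 0.46 (SE 0.083, adjusted p = 0.00156) on the log2 scale. In the overexpression experiment PSMD6 had 2606, 2709 and 2783 in ZC3H7A cells and 2874, 2877 and 2978 in ZC3H7B cells, against 3064, 3101 and 3272 in control cells. It fell by 0.22 (adjusted p = 0.0005) with ZC3H7A and by 0.11 (adjusted p = 0.0342) with ZC3H7B, and the call with ZC3H7B was lost in edgeR (adjusted p = 0.281) and DESeq2 (adjusted p = 0.309). With upper-quartile scaling neither call held, at -0.095 (adjusted p = 0.0796) with ZC3H7A and 0.018 (adjusted p = 0.748) with ZC3H7B.

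PSMA4 had 4995, 4468 and 4466 normalized reads in DD cells, against 3461, 3683 and 3782 in Parental cells, and rose by 0.35 (SE 0.07, adjusted p = 0.00304). It had 6687, 7339 and 7498 in ZC3H7A cells and 7232, 7642 and 7819 in ZC3H7B cells, against 7694, 7850 and 7885 in control cells. The fall of 0.12 with ZC3H7A (adjusted p = 0.0324) was lost in edgeR (adjusted p = 0.0956) and DESeq2 (adjusted p = 0.261), and the value was 0.002 with upper-quartile scaling. PSMB1 rose in DD cells as well, with 4420, 4314 and 4059 against 3291, 3419 and 3632 in Parental cells (0.31, SE 0.068, adjusted p = 0.00507). Rises of PSMD10, PSMD6, PSMC1, PSMA4 and PSMB1 passed the test in every setting run. Those of PSMB7, PSMC2, PSMC3 and PSMC4 did not, and without DD replicate 1 or 2, or Parental replicate 1 or 2, 5 members rose.

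The catalytic subunits moved little in DD cells. PSMB5 had 1814, 1552 and 1605 normalized reads in DD cells, against 1443, 1768 and 1682 in Parental cells, and the groups overlapped (0.025, adjusted p = 0.868). PSMB6 had 2346, 2156 and 2178, against 2365, 2438 and 2392 (-0.11, adjusted p = 0.255). PSMB7 had 3721, 3485 and 3322, against 2900, 3151 and 3072, and rose by 0.21 (SE 0.07, adjusted p = 0.0429). The PSMB7 call was lost in DESeq2 (adjusted p = 0.0998) and with the replicate block (limma, adjusted p = 0.103). Of the members named above for large changes on overexpression, PSMC4 rose in DD cells too, by 0.24 (SE 0.069, adjusted p = 0.0214), with 10620, 10661 and 10121 normalized reads, against 8335, 8693 and 9614 in Parental cells. Its call was lost without DD replicate 1 or 2 or Parental replicate 1 or 2 (adjusted p of up to 0.0902) and with the replicate block (adjusted p = 0.0634). PSMD8, PSMA7, PSMD12, PSMA3 and PSMC6 had -0.005, 0.08, -0.02, 0.16 and 0.11 and did not pass the test (adjusted p = 0.964, 0.432, 0.809, 0.0867 and 0.52), and PSMD5 was not tested. The neighbours of PSMB1 and PSMC4 had medians of 0.29 and 0.23 in DD cells, close to the changes of these genes, and their part was not tested.

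Genes around the proteasome were counted in 7 lists. Of all tested genes 34.7% rose and 41.2% fell with ZC3H7A, 32.0% and 37.6% with ZC3H7B, and 14.7% and 14.8% in DD cells. No list was tested as a set, and counts near these shares are no result about a list. Among the activators and the inhibitor of the core, 4 of 5 rose and 1 fell with ZC3H7A and 3 rose and 1 fell with ZC3H7B. PSME1, a subunit of the 11S activator, rose by 0.63 (adjusted p = 2.4e-07) with ZC3H7A and 0.32 (adjusted p = 9.17e-05) with ZC3H7B. It fell by 0.56 (adjusted p = 0.000216) in DD cells, with 965.8, 1064 and 966.8 normalized reads against 1463, 1504 and 1457 in Parental cells. Its partner PSME2 rose by 0.30 with ZC3H7A (adjusted p = 0.000215), had 0.03 with ZC3H7B (adjusted p = 0.572) and fell by 0.46 in DD cells (adjusted p = 0.0338). The nuclear activator PSME3 rose by 0.46 and 0.33, and the inhibitor PSMF1 by 0.64 and 0.54 (adjusted p = 2.41e-07 and 1.49e-06).

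The interferon-inducible and tissue-restricted subunits were close to absent. PSMB9 had 39.1 to 52.5 normalized reads in ZC3H7A cells, 24.97 to 38.1 in ZC3H7B cells and 42.5 to 52.4 in control cells. It fell with ZC3H7B (-0.62, adjusted p = 0.00632), had -0.01 with ZC3H7A (adjusted p = 0.963) and was higher in ZC3H7A than in ZC3H7B cells (0.61, adjusted p = 0.0121). PSMB10 had 12.9 to 18.4, 16.7 to 24.9 and 30.7 to 39.5 in the same groups and fell with both proteins (-1.10 and -0.81, adjusted p = 0.000238 and 0.00259). PSMB8 (16 reads in ZC3H7A cells, 20 in ZC3H7B cells and 53 in control cells), PSMB11 and PSMA8 did not pass the filter.

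The 7 assembly factors outside the member list split. POMP, the maturation factor of the core, fell by 0.47 with ZC3H7A and 0.14 with ZC3H7B (adjusted p = 6.84e-07 and 0.00832). PSMG1, a chaperone of the alpha ring, fell by 0.15 with ZC3H7A and rose by 0.26 with ZC3H7B (adjusted p = 0.00325 and 7.98e-05). PSMG4 rose by 0.19 with ZC3H7A (adjusted p = 0.00192), and KIAA0368, the older symbol of ECPAS, passed in none of the 4 comparisons by limma (adjusted p = 0.073 to 0.62). In DD cells 0 of the 7 were called by limma, edgeR or DESeq2, and 2 had an unadjusted p under 0.05 in limma.

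Of 4 further cap genes, the ubiquitin receptor ADRM1 rose by 0.75 and 0.70 with ZC3H7A and ZC3H7B (adjusted p = 2.32e-07 and 6.52e-07). The neighbours of ADRM1 were not examined. It lies on chromosome 20 like PSMA7, whose neighbours had medians of 0.59 with ZC3H7A and 0.43 with ZC3H7B. The deubiquitinases UCHL5 and USP14 fell with both: UCHL5 had 1603 to 2348 normalized reads in ZC3H7A cells and 1670 to 1952 in ZC3H7B cells, against 4306 to 4478 in control cells. Its log2 fold changes were -1.20 and -1.27 (adjusted p = 7.78e-07 and 7.39e-07). USP14 fell by 0.41 and 0.32, and rose by 0.33 in DD cells (adjusted p = 0.00433).

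The 11 genes of the NFE2L1 pathway gave 4 rises and 5 falls with each overexpressed protein, and 1 rise and 3 falls in DD cells. Among all tested genes 34.7% rose and 41.2% fell with ZC3H7A, 32.0% and 37.6% with ZC3H7B, and 14.7% and 14.8% in DD cells, so these counts are no result about the list. NFE2L1 itself had 9843, 9725 and 8604 normalized reads in ZC3H7A cells and 7612, 7526 and 7461 in ZC3H7B cells, against 6347, 6322 and 5996 in control cells. All overexpressing libraries were higher, and NFE2L1 rose by 0.59 and 0.28 (adjusted p = 5.55e-07 and 0.000385). In DD cells it fell by 0.18 (adjusted p = 0.0446), with 6749, 6740 and 6658 against 7842, 7625 and 7313 in Parental cells.

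The protease DDI2, which cleaves NFE2L1 into its active form, was lower in all 3 altered groups. It had 2228, 2010 and 2565 normalized reads in ZC3H7A cells and 2952, 2947 and 3279 in ZC3H7B cells, against 4280, 4245 and 4185 in control cells, and 1829, 1805 and 1982 in DD cells, against 3191, 2870 and 2887 in Parental cells. DDI2 fell by 0.91, 0.47 and 0.67 (adjusted p = 4.07e-07, 0.000125 and 4.54e-05). VCP, the ATPase that extracts NFE2L1 from the endoplasmic reticulum, rose by 0.65 and 0.55 (adjusted p = 2.05e-07 and 1.25e-06). In Parental cells VCP ranged from 4720 to 9814 normalized reads, with replicate 3 at the top, and DD against Parental did not pass (0.445, adjusted p = 0.111). SEL1L fell by 0.31 and 0.66, NFE2L3 by 0.34 and 0.26, and the small MAF gene MAFG rose by 0.16 with ZC3H7B (adjusted p = 0.00367).

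Among 5 genes of ubiquitin and its activation, 3 rose and 1 fell with each overexpressed protein, a count of few genes beside the all-gene shares given above. RPS27A, which encodes ubiquitin fused to a ribosomal protein, had -0.07 and 0.08 with ZC3H7A and ZC3H7B and fell by 0.49 in DD cells (adjusted p = 0.000207). UBB rose by 0.47 and 0.23. UBA1, the main ubiquitin-activating E1 enzyme, had 24068, 23500 and 20372 normalized reads in ZC3H7A cells and 23711, 22889 and 22121 in ZC3H7B cells, against 16786, 16923 and 16708 in control cells. All overexpressing libraries lay above the control, and UBA1 rose by 0.43 and 0.45 (adjusted p = 1.91e-05 and 1.75e-05). The other E1 gene, UBA6, fell by 1.195 and 1.025 with ZC3H7A and ZC3H7B (adjusted p = 1.97e-06 and 9.88e-06) and rose by 0.45 in DD cells (adjusted p = 0.00244).

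Of 12 tested ubiquitin receptors, ligases and unfolding cofactors, 5 rose and 3 fell with ZC3H7A, and 6 rose and 3 fell with ZC3H7B. In DD cells 4 rose and 1 fell. Beside these stand the all-gene shares of 34.7% and 41.2%, 32.0% and 37.6%, and 14.7% and 14.8%. The shuttle receptor UBQLN2 rose in all 3, by 0.52, 0.38 and 0.51 (adjusted p = 6.18e-07, 1.21e-05 and 0.000218), and FAF1 by 0.42, 0.56 and 0.21. UBQLN4 rose by 0.81 and 0.50 and RNF126 by 0.37 and 0.21 with ZC3H7A and ZC3H7B, while UBE3C fell by 0.15, 0.12 and 0.40 in the 3 comparisons. With the A+T trend removed, the values of POMP, USP14 and UBE3C with both overexpressed proteins, of PSMG1 and PSMG4 with ZC3H7A, of MAFG with ZC3H7B and of RNF126 with both changed sign.

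**Figure D5:**
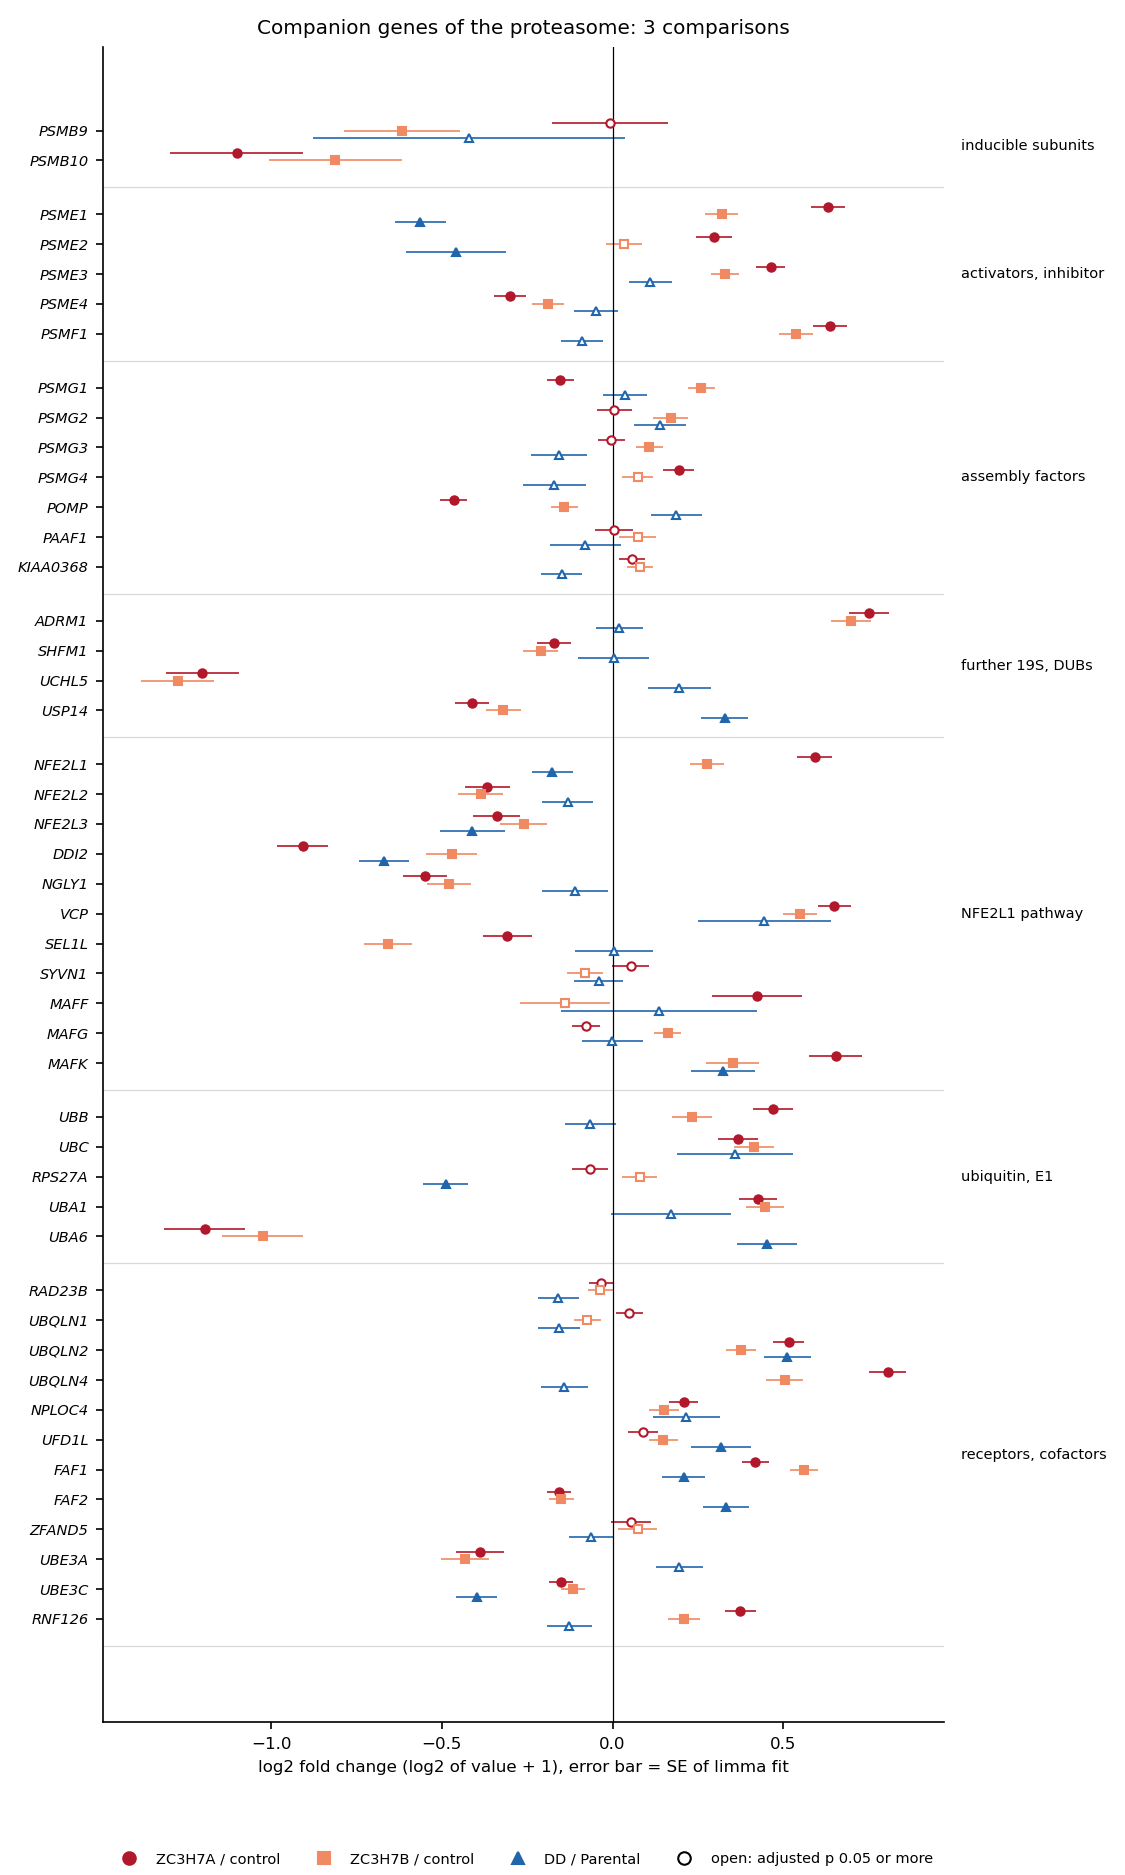
Log2 fold change (x axis, with SE) of the tested genes in the 7 lists around the proteasome, with ZC3H7A against control, ZC3H7B against control and DD against Parental as circles, squares and triangles, filled where the test was passed. UCHL5 and UBA6 lie far left and ADRM1 far right in both overexpressions.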

How the data were processed

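Poly(A) RNA-seq values of 15 samples were used. The deposited signal values are reads divided by a factor per library; STAR 2.7.10b, HTSeq, DESeq2 and the hg19 genome are named in the submitters' processing notes, without roles. In each library 100% of the values lay within 0.01 of a whole number of reads, so whole reads were recovered for edgeR 4.0.16 and DESeq2 1.42.0. On these reads edgeR called 6426 genes higher and 6924 lower with ZC3H7A, 6366 and 6047 with ZC3H7B and 2618 and 2861 in DD cells. The test was limma 3.58.1 in R 4.3.3 with a mean-variance trend on log2(value + 1), two-sided, over genes at 10 or more in at least 3 libraries: 17673 genes in 9 overexpression libraries and 18494 in 6 depletion libraries, fitted apart, with Benjamini-Hochberg adjustment over all of them. The fits were tested on simulated counts with less spread between replicates than the ZC3H7A and Parental libraries had. That test therefore gives no error rate for calls that use these groups. Named members were the 3 largest rises and falls per comparison, the catalytic subunits and members called in opposite directions; of each list, the 2 lowest adjusted p per comparison. The members and lists were chosen with earlier results of these data known. A few genes around the proteasome are not reported here. Gene symbols, codon shares and sequences came from GENCODE 29 (all 34 members matched); no hg19 annotation was used. Intervals cover counting error only.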

Additional observations from a re-analysis of the deposited data

Results flagged for a closer look

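The genes PSMD1 and PSMG1 were called in opposite directions with the 2 overexpressed proteins and also differed when the proteins were compared directly. PSMD1, a scaffold subunit of the cap, fell by 0.41 with ZC3H7A and rose by 0.12 with ZC3H7B, and the direct difference on the log2 scale was -0.53 (SE 0.034, limma, adjusted p = 2.11e-07), with 5166 to 5262 normalized reads in ZC3H7A cells and 7458 to 7574 in ZC3H7B cells. PSMG1, a chaperone of the alpha ring, fell by 0.15 with ZC3H7A and rose by 0.26 with ZC3H7B, with a direct difference of -0.41 (SE 0.039, limma, adjusted p = 4.73e-06) and 2410 to 2559 normalized reads in ZC3H7A cells, against 3295 to 3339 in ZC3H7B cells. The opposite calls depended on the setting. With libraries scaled to their totals PSMD1 had 0.03 with ZC3H7B (limma, adjusted p = 0.346). With the A+T trend removed and ZC3H7A overexpressed, PSMD1 had -0.035 (limma, adjusted p = 0.457) and PSMG1 0.172 (limma, adjusted p = 0.00106). The 20 neighbours of PSMD1 had a median of -0.41 in the direct comparison, and their part was not tested.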

How the results depend on the processing

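Against the members' median of 0.298 with ZC3H7A, TMM scaling gave 0.372, upper-quartile scaling 0.423, scaling to library totals 0.192 and removal of the A+T trend 0.407. With ZC3H7B, against 0.312, the same settings gave 0.405, 0.442, 0.23 and 0.389, and edgeR gave 0.37. Falls with ZC3H7A numbered 5 with upper-quartile scaling and 4 with the A+T trend removed, and falls with ZC3H7B numbered 2 with it removed. With that trend removed 11 members were higher in ZC3H7A than in ZC3H7B cells. Leaving out 1 library at a time gave 19 to 20 rises and 6 to 10 falls with ZC3H7A, 21 to 24 rises and 3 to 6 falls with ZC3H7B (3 without control replicate 2 or 3), 4 to 10 members higher and 7 to 9 lower in ZC3H7A than in ZC3H7B cells, and 5 to 13 rises and 0 falls in DD cells. The medians then ran from 0.298 to 0.335 with ZC3H7A, 0.298 to 0.363 with ZC3H7B, -0.01 to 0.025 between them and 0.042 to 0.129 in DD cells. Upper-quartile scaling turned the sign of PSMA2 (0.108) and PSMA4 (0.002) with ZC3H7A and of PSMA1 (0.009), PSMD6 (0.018) and UBE3C (0.014) with ZC3H7B. Removal of the A+T trend, which by construction takes out what follows base composition, turned with ZC3H7A PSMA1 (0.301), PSMA2 (0.336), PSMA4 (0.359), PSMA6 (0.301), PSMC2 (0.214), PSMD6 (0.048), PSMD14 (0.246), POMP (0.067), PSMG4 (-0.032), PSMG1 (0.172), USP14 (0.066), RPS27A (0.288), RNF126 (-0.066) and UBE3C (0.118). With ZC3H7B it turned PSMA1 (0.159), PSMA3 (0.031), PSMA4 (0.313), PSMA6 (0.295), PSMD6 (0.088), PSMD10 (0.112), POMP (0.256), USP14 (0.037), MAFG (-0.201), RNF126 (-0.119) and UBE3C (0.084). For the other settings the cause was not tested.

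Same-numbered replicates were not taken as pairs, since the labels name no shared culture or day and not every pair correlated above 0.1: their deviations correlated between -0.265 and -0.04 for DD and Parental, -0.032 and 0.055 for ZC3H7A and control, and -0.026 and 0.08 for ZC3H7B and control. For ZC3H7A and ZC3H7B they ran from 0.034 to 0.555. With the replicate block 5 members rose in DD cells, where NFE2L1 (adjusted p = 0.119) lost its call, and between ZC3H7A and ZC3H7B PSMD5 lost its call (adjusted p = 0.0544) and PSMD6 gained one (adjusted p = 0.0384).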
